A study of Mus musculus with 6 samples.

Results

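The 10 genes described here encode mitochondrial enzymes that take the carbon skeletons of isoleucine and valine down to propionyl-CoA and beyond, together with the enzymes that use ketone bodies: Acadsb, Echs1, Hsd17b10, Acat1, Hibch, Hibadh, Aldh6a1, Pcca, Pccb and Oxct1. They were selected by gene symbol, with the genotype differences of these same libraries already known. Levels, differences and calls of the 10 genes are therefore given as a description. Intervals are printed and p-values of single genes of the set are not. The counts of calls among them support nothing about the set. All 10 had values in every library, out of 17034 genes with values, and all 10 passed the filter on low counts, which kept 13118 genes.

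Polyadenylated RNA was sequenced from gastrocnemius, a mixed hindlimb muscle, of male mice aged 8 weeks, with 3 libraries labelled WT and 3 labelled TRa_mKO, all in batch 1 of the labels. Both genotypes carried floxed copies of Thra (Thrafl/fl), the gene of thyroid hormone receptor alpha. TRa_mKO mice also carried the transgene B6.Cg-Tg(Myf5-cre)1Jme/J, which places Cre recombinase under Myf5, active in early muscle precursors, so that deletion begins in the embryo and is directed to the muscle lineage. WT littermates had no Cre and no group carried Cre without floxed Thra, so the presence of Cre and the loss of the receptor cannot be told apart. The study concerns muscle loss and mitophagy, and the comparison asks which transcripts differ between the genotypes.

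Library totals lay between 12390521 and 14488494 counts. Thra itself was not lower in the libraries labelled TRa_mKO, at 78.8, 92.8 and 96.8 CPM (counts over the library total, scaled to a common size and adjusted for composition) in WT against 129, 118 and 101 CPM, and it shares reads with other features. Values of 3 libraries are given in the order of their replicate numbers throughout. A gene-level count cannot show which exons are lost, so it checks neither the deletion nor the labels. Among 9 tested thyroid hormone-responsive genes, 4 were called lower (edgeR): Hr, at 83.4 ± 6.37 CPM in WT and 7.79 ± 1.15 CPM in TRa_mKO, Thrb, Thrsp and Klf9. Over all tested genes the share called lower was 1.65%. The Klf9 call ended without each library other than WT replicate 1 (adjusted p = 0.0589 to 0.112) and the Thrsp call without WT replicates 1 or 3 (0.0510 and 0.0579). The muscle markers Acta1, Ckm, Des, Mb and Ttn summed to 54094, 62015 and 51605 CPM in WT and to 78555, 69596 and 70141 CPM in TRa_mKO, higher in each TRa_mKO library, with 0 of 5 called (3 at an unadjusted p below 0.05, 2 by DESeq2, 0 by limma-voom). In bulk tissue, fewer cells of a type and less RNA per cell cannot be told apart.

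Isoleucine and valine lose their amino group and are then oxidatively decarboxylated by the branched-chain ketoacid dehydrogenase in the mitochondrial matrix, and skeletal muscle is a main site of the first reaction. The isoleucine skeleton is next oxidised by Acadsb, hydrated by Echs1, oxidised again by Hsd17b10 and cleaved by the thiolase Acat1 to acetyl-CoA and propionyl-CoA. The valine skeleton is hydrated by Echs1, freed from coenzyme A by Hibch, oxidised by Hibadh and converted to propionyl-CoA by Aldh6a1. Propionyl-CoA carboxylase, built of Pcca and Pccb subunits, passes propionyl-CoA on towards succinyl-CoA. Oxct1 uses succinyl-CoA to activate acetoacetate, a ketone body, which Acat1 then splits to acetyl-CoA.

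Promoter sequences are shown for Echs1, the gene of the set with the largest difference between the genotypes, and Hibch, which acts directly after it on valine and differed least. RefSeq promoter windows of build GRCm38.p6 (250 bases before to 50 after the annotated start) were found for 9 of the 10 genes, 2 of them with more than 1 window. Echs1 is at chr7:140116372-140116671 on the minus strand and Hibch at chr1:52844788-52845087 on the plus strand. Capitals mark, on either strand, the hexamer AGGTCA, which thyroid hormone receptors and other nuclear receptors bind, and the Sp1 box GGGCGG, and neighbouring boxes overlap in Hibch.
Echs1: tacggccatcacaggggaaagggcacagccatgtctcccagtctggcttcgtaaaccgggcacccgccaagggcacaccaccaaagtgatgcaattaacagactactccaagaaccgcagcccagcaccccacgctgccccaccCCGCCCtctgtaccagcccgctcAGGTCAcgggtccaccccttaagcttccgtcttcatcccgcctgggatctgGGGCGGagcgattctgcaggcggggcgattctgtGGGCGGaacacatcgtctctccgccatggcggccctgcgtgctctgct
Hibch: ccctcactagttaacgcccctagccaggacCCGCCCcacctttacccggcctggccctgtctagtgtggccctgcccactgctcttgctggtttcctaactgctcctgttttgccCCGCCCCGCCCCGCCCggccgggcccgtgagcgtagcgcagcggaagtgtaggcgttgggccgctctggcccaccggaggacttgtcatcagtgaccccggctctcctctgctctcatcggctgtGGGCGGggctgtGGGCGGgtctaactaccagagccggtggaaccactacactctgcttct
The Echs1 window held 1 AGGTCA, starting 83 bases before the start site, and 3 Sp1 boxes, while the Hibch window held 0 and 6. AGGTCA was present in 5 of the 11 windows of the set, against 16.3% of all 32851 RefSeq windows, and GGGCGG in 6 of 11 against 35.7%. The 5 were those of Echs1 and Hibadh, both of Pcca and 1 of those of Aldh6a1. These are counts of windows and not of genes. The longer TCAAGGTCA, to which estrogen-related receptors bind, was in 0 of the 11 windows and 0.423% of all. A pair of AGGTCA hexamers in direct repeat with 4 bases between them, the arrangement best known for thyroid hormone receptors, was in 0 of the 11 and 0.0152% of all. The hexamer was present for Echs1, which was called higher, and for Hibadh, Aldh6a1 and Pcca, which were not called. It was absent from the windows of Acadsb, Hsd17b10 and Oxct1, which were called higher, and of Hibch and Pccb, which were not. Whether the hexamer bears on the differences was not tested. A match is a description of letters and not a binding site.

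In the libraries labelled TRa_mKO, 4 of the 10 genes were called higher: Echs1 (1.48-fold), Oxct1 (1.41-fold), Hsd17b10 (1.36-fold) and Acadsb (1.33-fold). None of the 10 was called lower. At an unadjusted p below 0.05, 7 were higher and 0 lower, while DESeq2 called 6 higher and 0 lower and limma-voom 3 and 0. Over all 13118 tested genes, DESeq2 called 461 higher and 301 lower, and limma-voom 311 and 197. No count over all genes is given at the unadjusted level, so the 7 have no background. A call means a Benjamini-Hochberg adjusted p below 0.05 over all tested genes in the quasi-likelihood test of edgeR. That fit called 2.52% of all tested genes higher and 1.65% lower. In 7 of the 10 genes every TRa_mKO library lay above every WT library, and in 0 below, where 13.2% and 10.1% of tested genes did so. The median log2 fold change of the 10 was 0.37, against -0.00032 over all tested genes. Scaling by library size alone moved that overall median to -0.05, turned the calls over all genes from 331 higher and 216 lower to 213 higher and 255 lower, and left 1 of the 10 called (Echs1). Echs1 passed in each fit without 1 library, whereas Oxct1, Hsd17b10 and Acadsb each passed in 1 of those 6 fits. WT replicate 1 and TRa_mKO replicate 3 were the richest in haemoglobin transcripts (1742 and 1599 CPM, against 453 to 907 CPM in the other libraries). Without both of them, a choice made after seeing the data, 0 of the 10 passed and 1.35% of all tested genes were called higher. In that fit, which had fewer libraries, 7 of the 10 were higher at an unadjusted p below 0.05. That count too has no share of all tested genes beside it and supports nothing about the set. Echs1, Oxct1, Hsd17b10 and Acadsb had log2 fold changes of 0.56, 0.59, 0.44 and 0.44 in that fit, against 0.57, 0.50, 0.44 and 0.41 with all libraries.

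**Figure D1:**
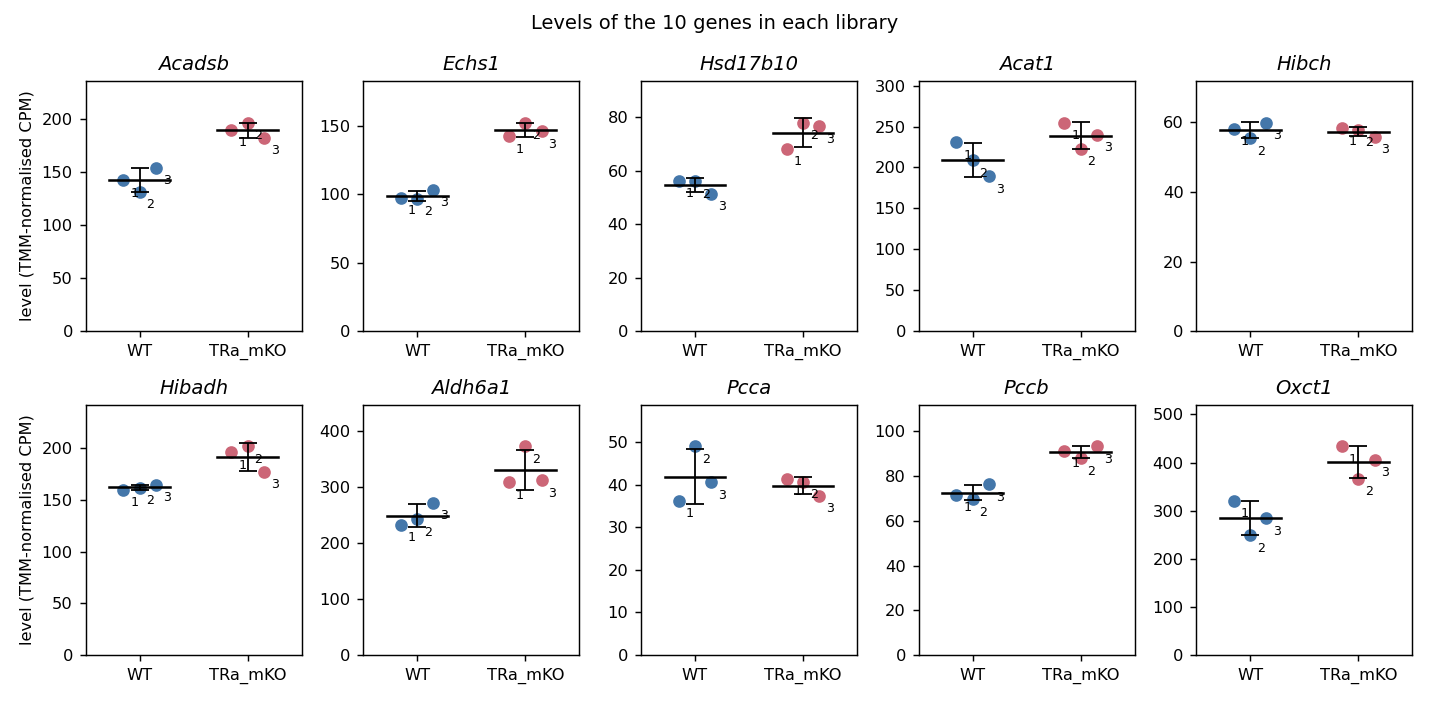
Each panel plots the level of 1 gene (TMM-normalised CPM, axis from 0) in the 3 WT and 3 TRa_mKO libraries, with the replicate number beside each point and the mean ± SD as lines. Echs1 runs from 96.5 to 103 CPM in WT and from 142 to 152 CPM in TRa_mKO, while the points of Hibch, Pcca and Acat1 overlap between the genotypes.

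The genes particular to isoleucine came first. Acadsb (gene ID 66885), the short/branched-chain acyl-CoA dehydrogenase, measured 142, 131 and 155 CPM across WT libraries, with 189.9, 197 and 183 CPM in TRa_mKO (means 143 ± 11.7 and 189.9 ± 6.98, SD, n = 3 each). The lowest TRa_mKO library stood above the highest WT library, and the log2 fold change was 0.41 (SE 0.10, 95% confidence interval 0.20 to 0.62). Its single passing fit among those without 1 library was the fit without WT replicate 3, and the log2 fold change lay between 0.35 and 0.47 in the 6.

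Hsd17b10 (gene ID 15108) oxidises the hydroxylated isoleucine intermediate and is also a subunit of mitochondrial RNase P, which cuts tRNAs from mitochondrial transcripts. It measured 56.1, 56.0 and 51.4 CPM in WT against 68.0, 77.9 and 76.5 CPM in TRa_mKO (54.5 ± 2.68 and 74.1 ± 5.34, log2 fold change 0.44, SE 0.09, interval 0.25 to 0.64). The groups did not overlap, and TRa_mKO replicate 1 lay nearest to WT. The call held without TRa_mKO replicate 1 and ended without each other library, with a log2 fold change of 0.40 to 0.50. The other protein subunits of that RNase, Trmt10c and Prorp, did not pass: Trmt10c measured 32.0 ± 3.17 CPM in WT and 26.5 ± 2.52 CPM in TRa_mKO (log2 fold change -0.27, edgeR adjusted p = 0.207) and Prorp 13.97 ± 1.10 and 12.2 ± 1.90 CPM (adjusted p = 0.496, shared reads). In that pair 1 gene had an unadjusted p below 0.05, and DESeq2 and limma-voom called 0.

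Echs1 (gene ID 93747), the short-chain enoyl-CoA hydratase, serves isoleucine, valine and fatty acids alike. It measured 97.6, 96.5 and 103 CPM across WT libraries, with 142, 152 and 146 CPM in TRa_mKO (99.1 ± 3.62 and 147 ± 5.06, log2 fold change 0.57, SE 0.08, interval 0.38 to 0.75). The gap between the groups was wider than the range within either. Over the 6 fits without 1 library the log2 fold change stayed between 0.53 and 0.60.

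Acat1 (gene ID 110446), the mitochondrial acetoacetyl-CoA thiolase, ends both the isoleucine and the ketone route. It measured 231, 209 and 189 CPM in WT against 255, 222 and 240.0 CPM in TRa_mKO (209.5 ± 20.8 and 239 ± 16.2). TRa_mKO replicate 2 lay below WT replicate 1, so the groups overlapped, and Acat1 did not pass (log2 fold change 0.19, SE 0.11, interval -0.05 to 0.43).

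Along the valine branch the differences were uneven. Hibch (gene ID 227095), which releases hydroxyisobutyrate from coenzyme A, measured 58.1, 55.4 and 59.9 CPM across WT libraries, with 58.3, 57.9 and 55.8 CPM in TRa_mKO (57.8 ± 2.27 and 57.3 ± 1.35). The groups overlapped throughout, with a log2 fold change of -0.01 (SE 0.08) whose interval of -0.18 to 0.16 bounds the difference. The sign turned when the third replicate of either genotype or both haemoglobin-rich libraries were left out, to a log2 fold change of 0.01 in each.

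Hibadh (gene ID 58875), which oxidises hydroxyisobutyrate, measured 159.9, 162 and 165 CPM in WT against 196, 202 and 177 CPM in TRa_mKO (162 ± 2.60 and 192 ± 13.1, log2 fold change 0.24, SE 0.09, interval 0.04 to 0.44). The groups did not overlap, but the gene did not pass. Aldh6a1 (gene ID 104776), the methylmalonate semialdehyde dehydrogenase, measured 233, 242 and 272 CPM across WT libraries, with 309, 373 and 312 CPM in TRa_mKO (249 ± 20.5 and 331 ± 36.1, log2 fold change 0.41, SE 0.11, interval 0.16 to 0.66). Its groups did not overlap and it did not pass in edgeR, although its log2 fold change equalled that of Acadsb to 2 decimals with a larger SE. DESeq2 called it. Aldh6a1 was the only gene of the set with fractional counts, at most 0.06 of a read away from a whole number.

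The subunits of propionyl-CoA carboxylase are described together, and the difference between their fold changes was not tested. Pccb (gene ID 66904), which carries the carboxyltransferase activity, measured 71.7, 69.6 and 76.3 CPM in WT against 91.3, 88.0 and 93.3 CPM in TRa_mKO (72.5 ± 3.39 and 90.8 ± 2.69, log2 fold change 0.32, SE 0.08, interval 0.14 to 0.51). The groups did not overlap, and Pccb passed with DESeq2 and not with edgeR. Pcca (gene ID 110821), the biotin-carrying subunit, measured 36.2, 49.0 and 40.6 CPM across WT libraries, with 41.4, 40.7 and 37.4 CPM in TRa_mKO (42.0 ± 6.51 and 39.8 ± 2.10, log2 fold change -0.07, SE 0.11, interval -0.32 to 0.18). WT replicate 2 was the highest library and WT replicate 1 the lowest, and without WT replicate 2 the log2 fold change was 0.05. Within WT the coefficient of variation of Pcca was 15.5%, the largest of the 10, which ranged from 1.60% (Hibadh) upward.

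Oxct1 (gene ID 67041), the transferase that lets muscle burn ketone bodies, measured 319.8 CPM in WT replicate 1, 249 in replicate 2 and 284 in replicate 3, and 434, 367 and 405 CPM in TRa_mKO (284 ± 35.6 and 402 ± 33.6, log2 fold change 0.50, SE 0.12, interval 0.23 to 0.77). The groups did not overlap, with a within-group spread that was wider than for Echs1. The call held without WT replicate 1 and ended without each other library, with a log2 fold change of 0.41 to 0.58.

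**Figure D2:**
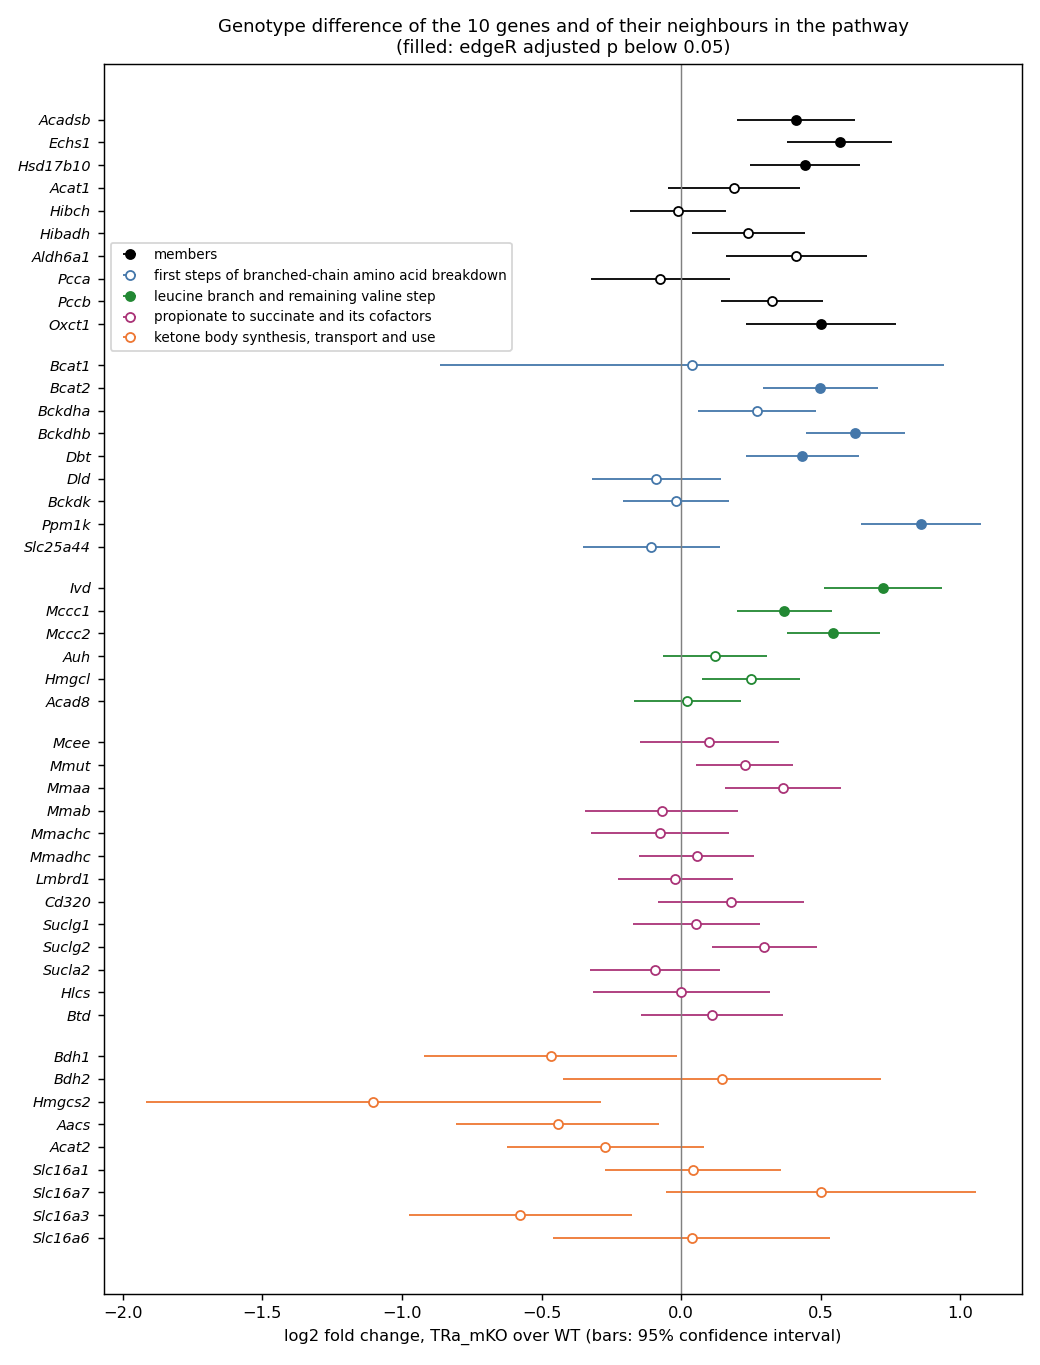
Points are log2 fold changes (TRa_mKO over WT, horizontal axis) with 95% confidence intervals for the 10 genes (black) and for tested genes of 4 neighbouring lists (colours), filled where the edgeR adjusted p was below 0.05. Filled points lie to the right of 0 in the black, blue and green groups, and the propionate (purple) and ketone (orange) groups hold none.

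Ratios of counts within a library need no scaling between libraries. Pcca counts were 0.505, 0.704 and 0.532 of Pccb counts in WT and 0.453, 0.462 and 0.401 in TRa_mKO, so that the groups lay apart by a narrow gap. Hibch counts were 0.595, 0.574 and 0.580 of Echs1 counts in WT and 0.409, 0.380 and 0.382 in TRa_mKO (0.583 ± 0.0109 and 0.3903 ± 0.0166). The ratio of Hibadh to Hibch, the step that follows, was 2.75, 2.92 and 2.76 in WT and 3.37, 3.49 and 3.17 in TRa_mKO.

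On the ketone route, Bdh1, which oxidises hydroxybutyrate to acetoacetate before Oxct1 acts, measured 44.9, 34.9 and 24.3 CPM in WT against 23.7, 25.8 and 25.6 CPM in TRa_mKO and did not pass (edgeR adjusted p = 0.265). The ratio of Oxct1 to Bdh1 counts was 7.12, 7.12 and 11.7 in WT and 18.3, 14.2 and 15.8 in TRa_mKO. The ratio of Acat1 to Oxct1 counts was 0.721, 0.840 and 0.666 in WT and 0.587, 0.607 and 0.592 in TRa_mKO. These ratios restate differences already described, for pairs of genes whose values were known.

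**Figure D3:**
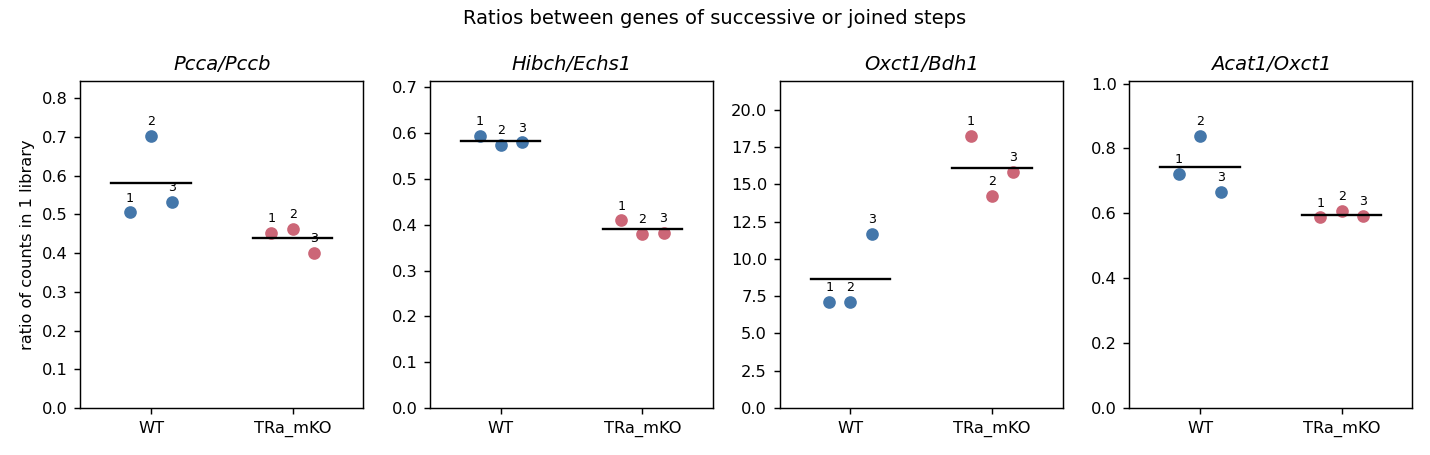
Each panel plots the ratio of the counts of 2 genes within a library (axis from 0) for 3 WT and 3 TRa_mKO libraries, with replicate numbers and the mean as a line. The Hibch/Echs1 ratio sits near 0.583 in WT and near 0.3903 in TRa_mKO, while Oxct1/Bdh1 is 8.64 on average in WT and 16.1 in TRa_mKO.

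Levels were also set on a per-length scale, as CPM per kilobase of the longest protein-coding GENCODE transcript. In WT the order was Hibadh (88.9 ± 1.42), Oxct1 (80.6 ± 10.1), Aldh6a1 (73.2 ± 6.02), Echs1 (63.7 ± 2.33), Acat1 (61.5 ± 6.09) and Hsd17b10 (55.0 ± 2.70). Hibch (31.6 ± 1.24), Pccb (31.3 ± 1.46), Acadsb (23.5 ± 1.92) and Pcca (16.2 ± 2.51) followed at lower levels. Hibadh and Oxct1, Oxct1 and Aldh6a1, Echs1 and Acat1, and Hibch and Pccb differed by less than the larger of their SDs, and the other neighbours by more. In TRa_mKO Oxct1 (114 ± 9.53) headed the order before Hibadh (105 ± 7.17), Aldh6a1 (97.5 ± 10.6) and Echs1 (94.4 ± 3.25), each of these within the larger SD of the next, and Pcca (15.4 ± 0.811) stayed last. The order depends on the transcript: with the second-longest transcript Oxct1 came to 163 and Acadsb to 57.9 CPM per kilobase in WT.

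**Figure D4:**
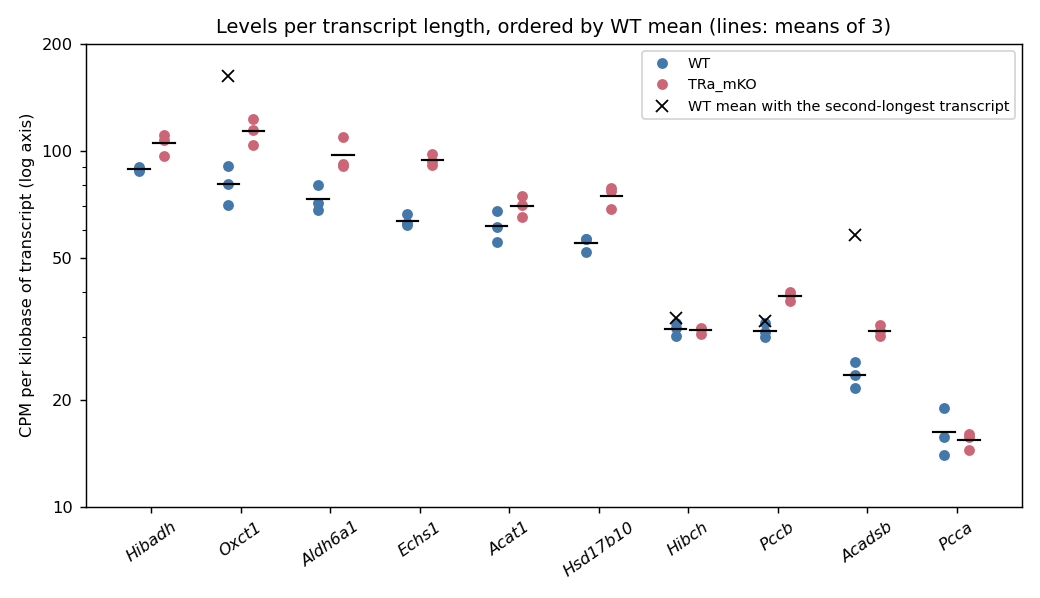
CPM per kilobase of the longest transcript (log axis) for the 10 genes in each library, ordered by the WT mean, with means of 3 as lines and crosses for the WT mean with the second-longest transcript where one is used. Pcca is lowest in both genotypes (16.2 and 15.4 CPM per kilobase), and the cross moves Oxct1 to 163 and Acadsb to 57.9.

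Of 56 other tested genes of the pathway and its neighbours, 11 were called higher and 0 lower by edgeR, with a median log2 fold change of 0.22. At an unadjusted p below 0.05, 27 of the 56 were higher and 5 lower. DESeq2 called 18 higher and 1 lower, and limma-voom 11 and 0. Without WT replicate 3, or without TRa_mKO replicate 2, 7 were called, and 6 without both haemoglobin-rich libraries. The first steps of branched-chain amino acid breakdown counted 4 of 9 higher, with a median log2 fold change of 0.27. Ppm1k, the phosphatase that activates the ketoacid dehydrogenase, rose 1.81-fold (32.4 ± 1.28 to 58.8 ± 6.49 CPM, log2 SE 0.10, adjusted p = 0.00127, shared reads). Bckdhb and Dbt, subunits of that dehydrogenase, rose 1.54-fold (29.0 ± 0.711 to 44.7 ± 2.24 CPM, adjusted p = 0.00269) and 1.35-fold (adjusted p = 0.0273). Bcat2, the mitochondrial aminotransferase of muscle, rose 1.41-fold (68.3 ± 3.75 to 96.5 ± 8.12 CPM, adjusted p = 0.0160). The kinase that inactivates the dehydrogenase, Bckdk, measured 123 ± 1.302 and 121 ± 6.96 CPM and did not pass (adjusted p = 0.947). Calls ended for Bcat2 without WT replicates 1 or 3 or TRa_mKO replicate 2 (adjusted p = 0.0574 to 0.0854) and for Dbt when any 1 WT replicate or TRa_mKO replicate 2 was left out (0.0686 to 0.136). Without both haemoglobin-rich libraries the calls of Bcat2 and Dbt also ended (0.0804 and 0.0849), and those of Ppm1k and Bckdhb held.

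In the leucine branch, with Acad8 of valine breakdown, 3 of 6 genes were called higher and the median was 0.31. Ivd, the isovaleryl-CoA dehydrogenase that corresponds to Acadsb on the leucine route, rose 1.65-fold (126 ± 5.03 to 209 ± 16.0 CPM, adjusted p = 0.00292). Mccc2 and Mccc1, the subunits of methylcrotonyl-CoA carboxylase, rose 1.46-fold (adjusted p = 0.00371) and 1.29-fold (adjusted p = 0.0269), and the Mccc1 call ended when any 1 library was left out (0.0501 to 0.138). Mccc1 also lost its call without both haemoglobin-rich libraries (0.113). Acad8, the valine counterpart of Acadsb and Ivd, measured 42.1 ± 2.32 and 42.7 ± 2.88 CPM (adjusted p = 0.934).

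Beyond propionyl-CoA, 0 of 13 genes were called, and the nearest to passing was Mmaa, which serves the cobalamin of methylmalonyl-CoA mutase (31.5 ± 3.09 and 40.6 ± 1.64 CPM, adjusted p = 0.0587). In that list 3 genes had an unadjusted p below 0.05 and DESeq2 and limma-voom each called 0. The ketone list counted 0 of 9 with a median of -0.27, and Slc16a3, a lactate and monocarboxylate exporter, was nearest (352 ± 40.8 and 236 ± 63.1 CPM, adjusted p = 0.117, shared reads), with 4 genes at an unadjusted p below 0.05, 1 call by DESeq2 and 0 by limma-voom. Oxct2a and Oxct2b had no values.

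Among fatty acid beta-oxidation enzymes, 4 of 14 were called higher (Eci2, Acads, Hadha and Echdc2, 1.49-fold, 1.53-fold, 1.48-fold and 1.36-fold, edgeR adjusted p = 0.00734, 0.00753, 0.0219 and 0.0409), with a median of 0.44. In 13 of the 14 every TRa_mKO library lay above every WT library, as in 13.2% of all tested genes. At an unadjusted p below 0.05, 13 were higher, and DESeq2 called 10 and limma-voom 4. The Hadha call ended without WT replicates 2 or 3 or TRa_mKO replicate 3 (0.0561 to 0.0861) and the Echdc2 call when any 1 library was left out (0.0542 to 0.176). The electron transfer flavoprotein (Etfa and Etfb) takes electrons from Acadsb, Ivd and Acads, and Etfdh takes them from the flavoprotein. These genes counted 0 of 3, with Etfdh at 121 ± 15.6 and 161 ± 8.22 CPM (edgeR adjusted p = 0.0671). In that list 2 genes had an unadjusted p below 0.05, with 1 call by DESeq2 and 0 by limma-voom. Without both haemoglobin-rich libraries the calls of Eci2, Hadha and Echdc2 ended (0.0587, 0.0795 and 0.124), and that of Acads held (0.0406). Of 9 regulators of oxidative metabolism, 2 were called higher and 0 lower, and 5 had a log2 fold change above 0. At an unadjusted p below 0.05, 5 were higher and 1 lower, while DESeq2 called 3 higher and limma-voom 2. Ppara, a fatty acid-activated nuclear receptor, rose from 10.8 ± 0.429 to 22.1 ± 2.54 CPM (edgeR adjusted p = 0.00130). Esrrb, an estrogen-related receptor, rose from 4.32 ± 0.232 to 7.46 ± 0.649 CPM (adjusted p = 0.0189). That call ended when replicate 2 or 3 of either genotype was left out (0.0568 to 0.0759), and without both haemoglobin-rich libraries (0.120).

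The genes whose levels over the 6 libraries ran most like those of Echs1 were Adhfe1 (r = 0.996), Ivd (r = 0.996) and Bckdhb (r = 0.994), among 7632 tested genes whose log2 CPM averaged 4 or more. Within the set, Acadsb (0.970), Pccb (0.965), Hsd17b10 (0.942), Aldh6a1 (0.933) and Hibadh (0.909) followed Echs1 most closely, ahead of Oxct1 (0.867) and Acat1 (0.597), while Hibch (-0.07) and Pcca (-0.26) did not follow it. For Pcca the nearest were Ep300 (r = 0.991), C1d (r = 0.990) and Syne1 (r = 0.987, shared reads). These correlations over 6 libraries include the genotype difference and are descriptions only.

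Markers of slow fibres moved with the genotypes. All 11 were higher in every TRa_mKO library than in any WT library and 5 were called by edgeR (Casq2, Myoz2, Atp2a2, Myl3 and Myl2), 10 by DESeq2 and 11 by limma-voom, with 11 at an unadjusted p below 0.05 and a median log2 fold change of 1.57. Of all tested genes, 13.2% were higher without overlap and 2.52% were called higher by edgeR. The Casq2 call held in each fit without 1 library. The Myoz2 call ended on leaving out the second replicate of either genotype (adjusted p = 0.0578 for WT and 0.0619 for TRa_mKO), and those of Atp2a2 and Myl3 when any 1 TRa_mKO replicate, or WT replicate 3 (Atp2a2) or 2 (Myl3), was left out (0.0556 to 0.0965 and 0.0571 to 0.10). The Myl2 call ended without each library other than WT replicate 1 (0.0556 to 0.11). The summed level of the 11 markers was 1365 to 3005 CPM in WT and 5308 to 7679.6 CPM in TRa_mKO, with 0 of 11 at 0. Within WT, replicate 1 held 3005 CPM of slow-fibre transcripts against 1365 and 1395 CPM in replicates 2 and 3. The 10 genes summed to 1405, 1319 and 1396 CPM in the same libraries, but not alike: Oxct1, Acat1 and Hsd17b10 were highest in WT replicate 1, Pcca in replicate 2 and the other 6 in replicate 3. For Hsd17b10, WT replicates 1 and 2 were nearly equal (56.1 and 56.0 CPM). The first-step list summed to 723, 737 and 729.6 CPM in the WT libraries. In TRa_mKO the 10 genes summed to 1784, 1778 and 1727 CPM, lowest in replicate 3, which was highest in slow-fibre transcripts. The beta-oxidation enzymes summed to 2609.8, 2168 and 2066 CPM in WT, highest in replicate 1.

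Fast-fibre markers counted 1 of 11 higher (Myh2, a call that ended without each library other than WT replicate 1, adjusted p = 0.0615 to 0.137), with a summed level of 92663 to 123715 CPM in WT and 107304 to 122462 CPM in TRa_mKO. Of the other cell types, endothelial markers counted 0 of 5 called (807 to 980.3 CPM in WT and 587 to 817 CPM in TRa_mKO, 3 lower at an unadjusted p below 0.05, 1 by DESeq2, 0 by limma-voom), Schwann cell markers 0 of 6 (318 to 1310 and 502 to 683 CPM) and erythrocyte markers 0 of 5 (458 to 1763 and 710 to 1621 CPM). Adipocyte markers counted 0 of 6 tested (599 to 834 and 495 to 681 CPM), macrophage markers 0 of 5 (28.1 to 40.8 and 27.97 to 39.3 CPM) and fibroblast markers 0 of 5 (1126 to 1561 and 1110 to 1632 CPM, 1 at an unadjusted p below 0.05, 1 by DESeq2, 0 by limma-voom). The lists of Schwann cells, erythrocytes, adipocytes and macrophages counted 0 at an unadjusted p below 0.05 and 0 by DESeq2 or limma-voom. No marker was at 0 in all libraries. The part of fibre type and of these cell types in the differences was not tested beyond the values given.

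**Figure D5:**
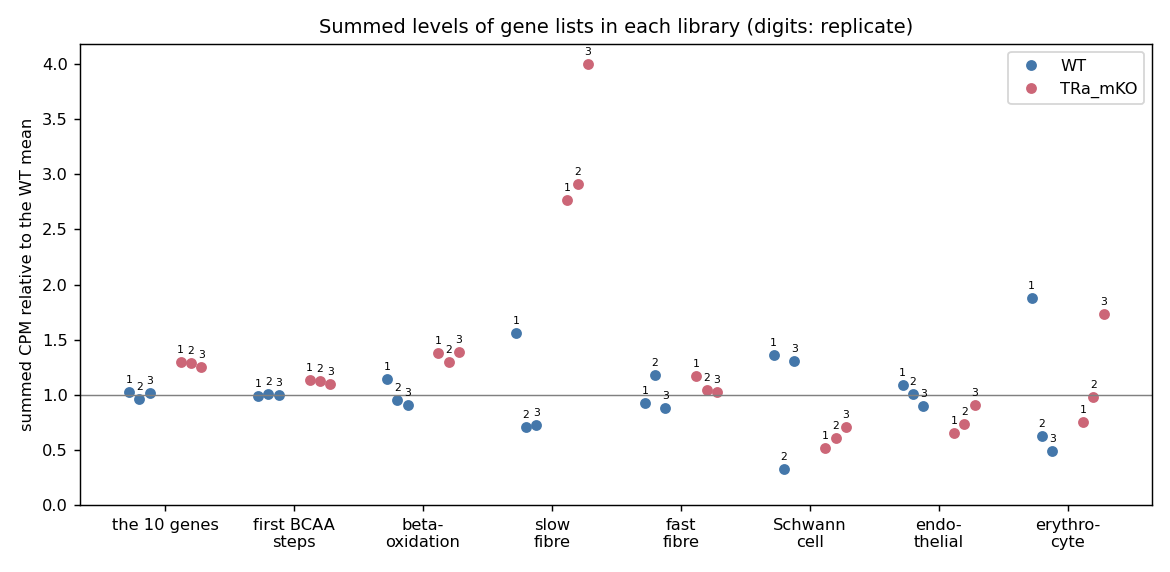
Points are summed CPM of gene lists in each library, divided by the mean of the 3 WT libraries (axis from 0, digits are replicate numbers). The 10 genes lie at 0.961 to 1.02 in WT and 1.26 to 1.299 in TRa_mKO, whereas slow-fibre markers spread from 0.710 to 1.56 in WT and from 2.76 to 4.00 in TRa_mKO.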

How the data were processed

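Polyadenylated RNA of gastrocnemius was sequenced in paired reads from stranded libraries, per the labels' protocols. The submitters' processing notes name Trimmomatic 0.39, featureCounts and 3 builds (GRCm39, GRCm38.p6, mm10) whose roles are unstated. Which aligner and strand option were used is not given in the sources used here. Estimated counts per gene were deposited by the authors, of which 9.65% to 10.0% in a library were not whole, and they were rounded. Genes with fractional counts are said to share reads.

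Genes were filtered with filterByExpr (minimum count 10), TMM-normalised and tested with edgeR 4.0.16 (robust quasi-likelihood, two-sided, genotype as the factor) in R 4.3.3, with adjusted p below 0.05 as the threshold; the steps were tested on simulated data. The members and lists were chosen with earlier results of these data known. Named were all 10 members, up to 4 called genes of each list (otherwise that with the smallest p) and, for the members with the largest and smallest fold change, the 3 most alike genes. Bckdk, Acad8, Bdh1, Prorp and Myl2 were named after their values were seen. The labels number 3 replicates per genotype, give each library its own column name and say no more of the replicates. The p-values weigh the difference against the spread between these libraries, and precision covers that spread only. Alternatives used DESeq2 1.42.0, limma-voom (limma 3.58.1), other scalings, filters and thresholds, a replicate block and libraries left out. Promoters are RefSeq's and transcript lengths GENCODE's. Gene coordinates are not printed since it is unclear which build the counts rest on.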

Additional observations from a re-analysis of the deposited data

How the results depend on the processing

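The number of the 10 genes called higher was 4, and it fell to 1 with library size scaling, to 1 with a replicate block, to 1 at an adjusted p below 0.01 and to 0 without both haemoglobin-rich libraries. It lay between 1 and 2 in the fits without 1 library. DESeq2 called 6, adding Aldh6a1 and Pccb, and limma-voom called 3, without Oxct1. The number called lower was 0 under each of these settings. Over all genes 547 were called, against 357 with the replicate block, 267 without both haemoglobin-rich libraries, 173 at an adjusted p below 0.01, 934 below 0.1 and 209 (without TRa_mKO replicate 2) to 595 (without TRa_mKO replicate 1) in the fits without 1 library. For the other pathway genes 11 were called, against 19 with DESeq2, 6 without both haemoglobin-rich libraries, 6 at an adjusted p below 0.01, 20 below 0.1 and 7 to 13 in the fits without 1 library. The labels name no pairing, so the replicate block pairs nothing known. Deviations of same-numbered libraries had correlations of -0.18, -0.0044 and 0.0041, and those of other pairs reached -0.18 and 0.19. Such correlations among so few libraries cannot exclude a pairing. The sign of the difference turned for Hibch in 3 of 16 alternatives and for Pcca in 1 of 16, and neither gene was called in any. With 3 libraries per genotype, the interval for Acat1 includes 0. That for Hibadh does not, but Hibadh did not pass after adjustment over all tested genes.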
